A study of Mus musculus with 9 samples.

Results

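The 425 sequences described here carry names that begin with PC-5p- (141 sequences) or PC-3p- (284 sequences), the names given in the deposited table to predicted miRNAs rather than to known ones. They were taken by name alone, each sequence was counted once, and they made up 27.1% of the 1571 different sequences of the table. The 9 small RNA libraries, 3 in each of 3 groups, were made from the wild-type mouse line RAW264.7, which resembles macrophages. Both treated groups were first given LPS (lipopolysaccharide, from the outer membrane of bacteria, a strong stimulus of macrophages) over 6 h, and GRd (ginsenoside Rd, one of the saponins of ginseng) was then applied at 1 µM or 10 µM over 24 h. The control group is labelled as having neither LPS nor GRd, whereas the description field and the protocol describe LPS followed by GRd at 0 µM. The conflict could not be resolved, so a comparison with control covers GRd alone or LPS and GRd together. Library 3 of the 10 µM group carries the cell line label RAW264.8, and the other 8 carry RAW264.7. No label ties a replicate to its own culture, and all p-values therefore reflect only how far these libraries differ, which can be technical variation.

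A miRNA is cut from a hairpin in a longer transcript. Drosha and Dicer release a short duplex, one strand of which comes from the 5p arm and the other from the 3p arm, and the strand kept by Argonaute pairs with target mRNAs mainly through its seed, bases 2 to 8. In a mirtron the hairpin is a small spliced intron, so that the splice sites and not Drosha set its ends, and the 3p arm ends with the AG that closes the intron. Prediction from sequencing reads calls a miRNA where reads fall on one arm of a sequence that can fold into a hairpin.

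The 3 most abundant candidates held 65.9% of all candidate value, and their sequences are printed first, with the seed in capitals.
PC-3p-844_11652: aTATTGTGgcctacattg
PC-5p-3713_1568: tTCCCGCTccccgttcctcccga
PC-5p-1074_8301: tCTGGACAcatgtggctttt

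The next set shows 9 of the candidates that shared a run of bases with the end of an annotated structural RNA, chosen for their level or for the kind of RNA. Capitals mark the bases shared with the annotated RNA.
PC-3p-844_11652: ATATTGTGGCCTACATTg
PC-3p-23022_141: GTGACGCGATCTGCCCGa
PC-5p-19094_181: AGTCTTACAGTCCTTAcca
PC-3p-61356_24: GTTTGTAGCCTGACATTTt
PC-5p-12415_322: tcGTGACTGTACTTGGTA
PC-5p-30325_94: ttTGATGGCTGTTCCTCCTGTT
PC-5p-113182_5: tCTGCATCCACTGATAGACCTC
PC-3p-133864_5: atCCGGGTGCTGTAGGCTt
PC-5p-121143_5: tCTGGGTGCTGTAGGCTtt

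The next 8, of 9 described further on, matched the 3p arm of a known intronic miRNA hairpin up to the last intron base and then carried 1 more T. Capitals mark that last T.
PC-3p-8501_522: actgtgcctctctgttttcagT
PC-3p-35247_74: tcccattctcaccgcacccagT
PC-3p-40692_58: tgaccggcctatcctctcagT
PC-3p-49666_39: tgctctctgcccctcttaagT
PC-3p-74831_14: ctgtgacacacccgctcccagT
PC-3p-76617_13: tccaacttggccccttccagT
PC-3p-83523_11: tgtgcttcttgcctcttctcagT
PC-3p-104749_6: aacccctctcttctctcccagT

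The candidates were of miRNA size, but every sequence of the table had 18 to 26 bases, so this range does not mark the candidates. The mean length of the candidates was 21.05 ± 1.51 bases (SD over 425 sequences), and that of the other 1146 sequences was 21.34 ± 1.67. Lengths of 21 to 23 bases made up 61.4% of candidates and 66.6% of the others. The arms differed in length, since 69.0% of the 3p candidates but 46.1% of the 5p candidates had 21 to 23 bases, whereas 31.9% of the 5p and 13.7% of the 3p candidates had 18 or 19. The arm labels come from the authors' prediction, which also set where each sequence begins and ends.

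Their base content was richer in G and C. G and C together averaged 58.0 ± 11.5% in candidates and 54.3 ± 12.3% in the others (SD over sequences), and 34 candidates (8%) were above 75%, against 48 of the others (4.19%). The most GC-rich was PC-5p-111421_5 at 90.9% and the poorest was PC-5p-44156_49 at 20.0%. Candidates of the 5p arm held more G (33.4% of their bases) than those of the 3p arm (27.3%), and the 3p arm held more C (31.3% against 23.6%). T was the first base of 187 candidates (44.0%) and of 39.1% of the others, and G opened 10.4% and 12.2%. Sequences that share a hairpin or a source overlap in bases, so these shares are descriptions and carry no test.

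**Figure D1:**
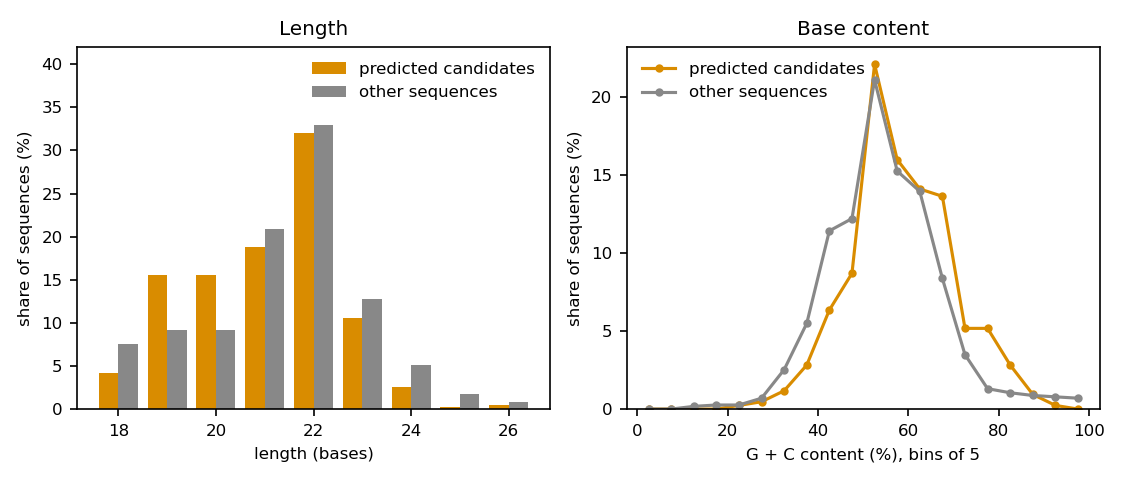
Length in bases (left) and G + C content in bins of 5% (right) as shares of the 425 predicted candidates (orange) and the 1146 other sequences (grey). Both peak at 22 bases, candidates have larger shares at 19 and 20 bases, and their G + C curve lies above the other from about 65% to 85%.

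Endings in AGT and TTT stood out in number. AGT closed 44 candidates (10.4%) and 47 other sequences (4.10%), and TTT closed 32 candidates (7.53%) and 33 others (2.88%). The ending CAGT was found on 28 candidates and 18 other sequences. Of the candidates that ended in AGT, 33 were from the 3p arm and 11 from the 5p arm. Candidates ending in TTT were poor in G and C, at a mean of 46.1%, and were more abundant than most, with a median level of 2.40 normalized counts against 0.918 for the rest. They included PC-5p-1074_8301, PC-3p-3420_1760, PC-3p-8407_530 and PC-3p-12296_327 of the 15 most abundant, and together made up 23.3 to 32.3% of the candidate value in each library. Most of that was PC-5p-1074_8301 alone, at 1489 to 2366 normalized counts, where all candidates ending in TTT summed to 2129 to 2862.

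Most candidates were rare, and a few were not. Levels are the authors' normalized counts, in which each library sums to between 6235670 and 6815350 over the table. The median of the candidates' means over the 9 libraries was 0.971 normalized counts, against 13.5 for the other sequences, and the means ran from 0.342 to 2228. A mean of at least 50 was reached by 16 candidates, a mean of at least 10 by 50, and 270 stayed under 2. The highest 15 held 83.1% of all candidate value.

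PC-3p-844_11652 stood at 2285, 2749 and 1784 normalized counts in control, 2766, 2749 and 1871 at 1 µM, and 2184, 1691 and 1977 at 10 µM. The 3 groups overlapped. PC-5p-1074_8301 stood at 2099, 1914 and 1489 in control, 1833, 1739 and 1613 at 1 µM, and 2292, 1759 and 2366 at 10 µM, again with overlapping groups. PC-5p-3713_1568 stood at 2111, 2052 and 2212 in control, 1954, 2005 and 1821 at 1 µM, and 1257, 1292 and 3178 at 10 µM. Its control libraries lay close together and above all 3 of the 1 µM group, while at 10 µM it was low in libraries 1 and 2 and highest of all in library 3.

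Below these came a step of more than 5-fold to PC-3p-4406_1223, with a mean of 340 normalized counts and 244 to 420 across the libraries. PC-3p-3077_2041 had a mean of 235 and ranged from 169 to 424, the top value being in library 3 at 10 µM. PC-3p-12911_305 ranged from 96.8 to 266, also highest in that library. PC-3p-8407_530 was the most even of the 15, at 85.7 to 114 in all 9 libraries.

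**Figure D2:**
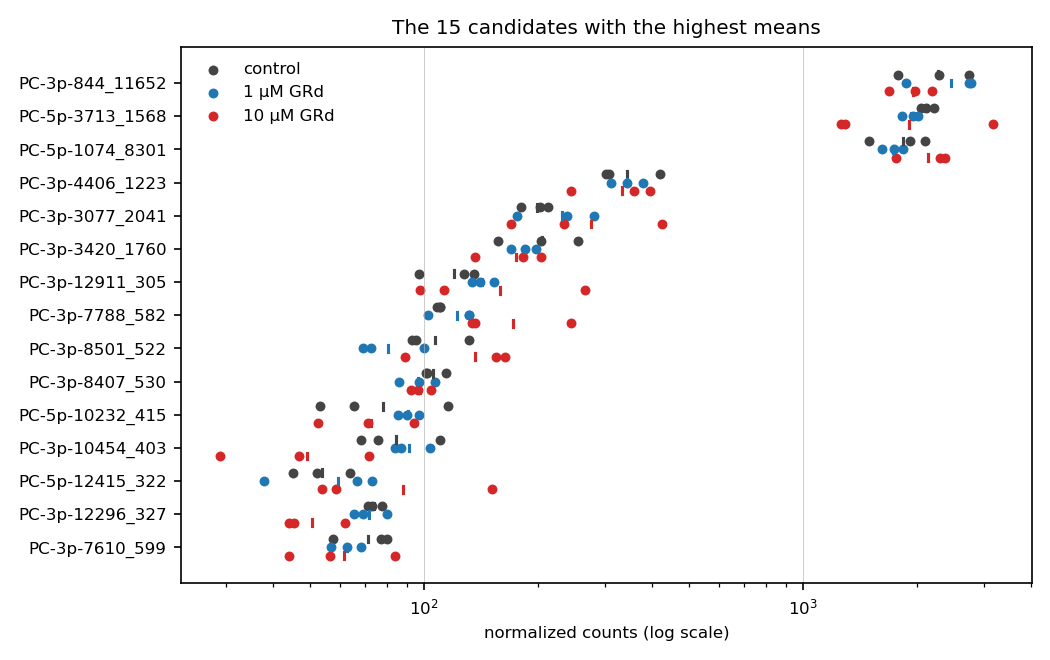
Normalized counts (log scale) of the 15 candidates with the highest means, 1 point per library and a short bar at each group mean (3 libraries each). Values lie between 28.9 and 3178, the 3 top candidates stand apart from the rest, and single 10 µM points far to the right are library 3.

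As a share of the library the candidates were minor. They took 0.119 to 0.180% of a library's summed value, with means of 0.146 ± 0.0108% in control, 0.142 ± 0.0194% at 1 µM and 0.144 ± 0.0320% at 10 µM (SD, n = 3). The groups overlapped in all 3 comparisons. Exact permutation tests, two-sided, gave p = 0.8 for 1 µM against control, 0.9 for 10 µM against control and 1 for 10 against 1 µM, and 3 libraries against 3 cannot give less than 0.1. The highest and lowest shares both belonged to the 10 µM group, in library 3 and library 2.

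Detection was sparse. A value above 0 in a single library was all that supported 222 candidates (52.2%), whereas 209 of the other sequences (18.2%) were so placed. Only 45 candidates (10.6%) had a value in all 9 libraries, against 578 of the others (50.4%). The single-library share was 58.2% for 5p and 49.3% for 3p candidates. At least 2 libraries of the group held 117 candidates in control, 108 at 1 µM and 128 at 10 µM.

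The candidates' low values behaved as whole reads. Steps between low values gave the worth of 1 read in each library, and 98.4% of the 1304 candidate values above 0 lay within 0.01 of a whole number of such reads. Of these values, 18 stood for fewer than 5 reads and 296 for 5, so that a value of 0 can stand for up to 4 reads and is not absence. In normalized counts, 5 reads are 3.43 to 6.89, depending on the library. By this measure 185 of the 222 single-library candidates rested on 5 or 6 reads. The last number in each candidate's name, whose meaning is not given in the sources used here, equalled the estimated reads over all libraries for 272 of 425 candidates and for 214 of the 222 found in a single library. It was never under 5, and it was 5 for 128 candidates. Candidates found in all 9 libraries had a median of 1.77 times as many estimated reads as their name number.

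How many candidates a library showed went with its depth in most libraries. Control libraries held 123, 189 and 110 candidates, those at 1 µM held 136, 129 and 109, and those at 10 µM held 191, 134 and 183. The estimated reads behind the table were 5981110, 9187090 and 4933690 in control, 6352780, 6560160 and 5861580 at 1 µM, and 9214210, 6247800 and 4947880 at 10 µM. The deepest libraries, control library 2 and 10 µM library 1, thus held the most candidates. The next highest number was in 10 µM library 3, one of the shallowest.

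Group means were 141 ± 42.4 candidates in control, 125 ± 14.01 at 1 µM and 169 ± 30.9 at 10 µM (SD, n = 3). Exact permutation tests, two-sided, gave p = 0.8 for 1 µM against control, 0.3 for 10 µM against control and 0.2 for 10 against 1 µM. After Benjamini-Hochberg adjustment over these 3 comparisons and the 3 of the summed share, the exact p-values were between 0.9 and 1. Numbers of candidates with at least 10 normalized counts, a level of 7.26 to 14.6 estimated reads depending on the library, were 54, 65 and 59 in control, 58, 54 and 53 at 1 µM, and 57, 63 and 89 at 10 µM. Library 3 at 10 µM was above all others, and the part of depth in this number was not tested.

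Candidates seen at one dose were mostly seen in one library of that dose. Values above 0 were confined to control for 63 candidates, to 1 µM for 34 and to 10 µM for 139. Library 3 alone held 66 of the 139, and without that library 73 candidates were found at 10 µM only, 65 in control only and 39 at 1 µM only. A single candidate, PC-3p-89886_8, was listed above 0 in 3 of 3 libraries of one group and at 0 in the other groups. It stood at 3.48, 6.15 and 19.3 normalized counts at 10 µM, the lowest of which is 5 reads, and its zeros allow up to 4 reads each.

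**Figure D3:**
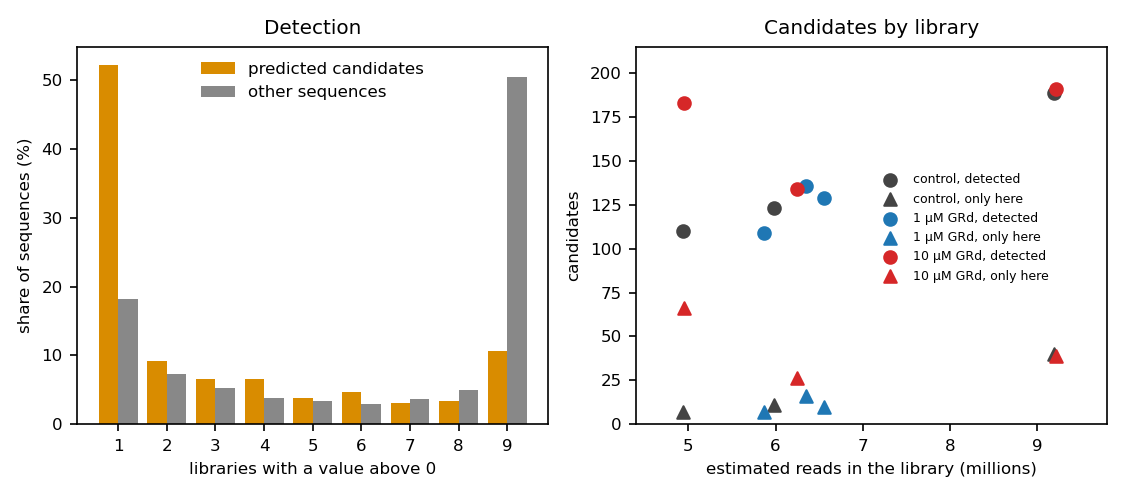
Left, the share of the 425 candidates (orange) and of the 1146 other sequences (grey) by the number of libraries with a value above 0. Right, candidates detected (circles) and found in that library only (triangles) against estimated reads. The red points at the far left, 183 detected and 66 only there, are 10 µM library 3.

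That library differed in known miRNAs as well. Summed levels of 6 macrophage and myeloid miRNAs, all found in the table, were 595684 to 776945 normalized counts in the other 8 libraries and 327953 in it. Those of 6 fibroblast and muscle miRNAs (a seventh, miR-1a-3p, was not found) were 923 to 1145 in the other 8 and 6714 in it, and the liver miRNA miR-122-5p was at 34.5 to 86.9 and 456. The 3 red cell miRNAs summed to 41.9 to 308 in the others and 357 in it, the 6 epithelial ones to 1897 to 2370 and 2671, and the 2 neuronal ones to 11.9 to 34.5 and 23.9. These are sums in which an abundant member can outweigh the rest, so the change of each member cannot be read from them. The part of these markers in the results on candidates was not tested. In bulk RNA, fewer cells of a type and less RNA per cell cannot be told apart.

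Among the 50 candidates with a mean of at least 10, library 3 at 10 µM was more than 2-fold above all other libraries for 4 and more than 2-fold below all of them for 4. The other libraries had 0 or 1 above and 0 to 2 below. PC-5p-14087_272 stood at 135 normalized counts there and at 17.8 to 44.6 elsewhere, and PC-3p-25389_123 at 103 and 22.3 to 51.2. PC-5p-12415_322 stood at 152 there and 37.9 to 73.0 elsewhere, and PC-3p-33754_80 at 34.4 and 5.57 to 12.5. The 4 that were low there, PC-3p-22007_150, PC-3p-31872_87, PC-5p-42275_54 and PC-3p-52100_35, were at 0 in that library and above 0 in the other 8.

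The sequences were searched, on the annotated strand, in 141767 GENCODE vM21 transcripts (GRCm38), 2202 of them miRNAs, and in 1005 mouse hairpins of RefSeq (GRCm38.p6). Only 17 candidates were found whole. PC-3p-52355_35 lay whole in a miRNA gene, Gm27686 at chr9:52103708-52103729 on the minus strand. It stood at 3.43 to 17.4 normalized counts in 7 libraries and at 0 in control library 3 and 10 µM library 3. PC-3p-55043_31 lay in Snord83b, a snoRNA gene (chr15:80078523-80078542, minus), and PC-3p-73667_15 in mt-Rnr1, the mitochondrial small rRNA. The other 14 lay in other transcripts, the most abundant being PC-3p-22145_149 in Gm42418 (chr17:39847697-39847714, plus), at 8.49 to 42.4 normalized counts. On the opposite strand the same place lies in CT010467.1, a gene annotated as rRNA. The remaining 408 were not found whole on the annotated strand, and the intergenic and intronic genome was not searched here. On the opposite strand, 9 candidates lay whole in a transcript, PC-3p-22145_149 among them. Of these 9, PC-3p-95468_7 lay opposite Mir150, PC-5p-68097_18 opposite Mir202 and PC-3p-85220_10 opposite Mir5620. PC-3p-97350_7 lay opposite Mir6541 and PC-5p-49658_39 opposite Gm24083, also annotated as miRNA genes.

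Matching bases 1 to 18 alone raised these numbers to 19 in miRNA hairpins, 4 in other small or structural RNAs and 26 in other transcripts. Of the 19 in hairpins, 12 had 1 base left over and in 9 of these it was T. In all 9 the matching run ended at the last base of an annotated intron, so that the next genome base opens an exon, and all 9 ended in AGT. Because introns close with AG, a run to the intron end followed by T ends in AGT by itself. Of the 12 candidates found by bases 1 to 18 that ended in AGT, 9 had such a run. None of the 37 candidates found this way that did not end in AGT had a run that stopped at an intron end.

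The hairpins of these 9 lie at the 3 prime end of introns in protein-coding genes. PC-3p-8501_522 matched Mir7043 at chr6:116645978-116645998 (minus), before an exon of Rassf4, and PC-3p-35247_74 matched Mir7674 at chr2:32050988-32051008 (plus), before an exon of Nup214. PC-3p-40692_58 matched Mir6956 in Triobp, PC-3p-49666_39 Mir7063 in Ap2a2, PC-3p-74831_14 Mir3100 in Dmpk and PC-3p-76617_13 Mir7054 in Scaf1. PC-3p-83523_11 matched Mir7008 in Prkci, PC-3p-104749_6 Mir7020 in Aldh4a1 and PC-3p-46499_45 Mir6980 in Arap3. The exon that follows opens with T only at Mir3100. At the other 8 its first base is A, C or G, so that the last T of those candidates is not the next base of the genome.

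For 3 of these 9 the same sequence without the T is in the table under its known name. PC-3p-8501_522 stood at 132, 92.7 and 95.5 normalized counts in control, 99.7, 72.2 and 69.0 at 1 µM, and 155, 89.1 and 164 at 10 µM. miR-7043-3p, which is 1 base shorter, stood at 97.7, 83.1 and 53.0, then 89.8, 54.2 and 71.3, then 129, 66.6 and 172. The longer form was the higher of the pair in 7 of 9 libraries.

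It made up 58.1 ± 5.81% of both forms in control, 53.0 ± 3.98% at 1 µM and 53.5 ± 4.33% at 10 µM (SD, n = 3), with overlapping groups between 48.8 and 64.3%. The levels of the other pairs were lower. PC-3p-35247_74 had a mean of 10.2 and miR-7674-3p of 4.12 normalized counts, and PC-3p-76617_13 had 2.41 and miR-7054-3p 1.31.

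**Figure D4:**
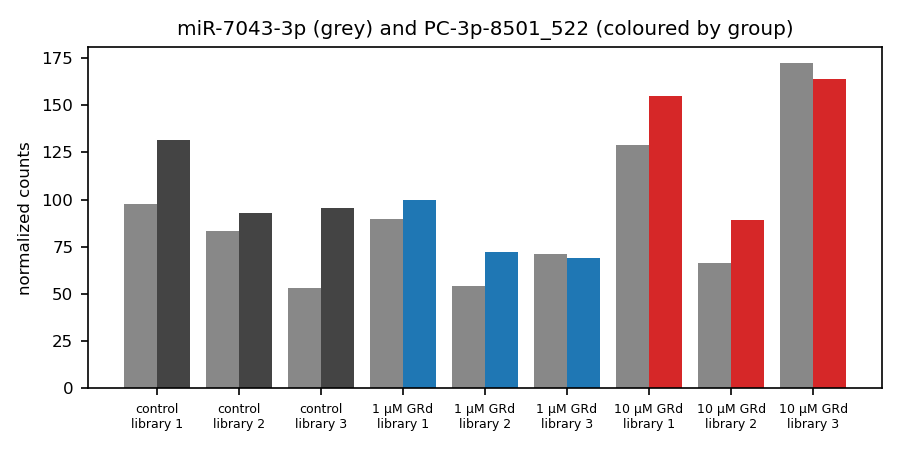
Normalized counts of miR-7043-3p (grey) and of PC-3p-8501_522, the same sequence with 1 more T (coloured by group), in each of the 9 libraries. The candidate is the higher bar in 7 libraries and the lower in 1 µM library 3 and 10 µM library 3.

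PC-3p-3420_1760 also ended in T bases, here in place of other bases of a known miRNA hairpin. Its first 19 bases are those of the Mir23a 3p arm (chr8:84208563-84208581, plus), and TT follows where the hairpin continues differently. Its first 18 bases also match Mir23b (chr13:63300529-63300546, plus), with TTT left over. Base 19 is a T that may belong to the hairpin or to the T run, so these hairpins cannot be told apart. The candidate shares the seed of miR-23a-3p. It stood at 204, 255 and 156 normalized counts in control, 170, 184 and 197 at 1 µM, and 183, 204 and 136 at 10 µM, with overlapping groups.

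A separate comparison asked how far candidates matched annotated structural RNAs over part of their length. Of 3907 GENCODE transcripts of rRNA, snRNA, snoRNA, scaRNA, mitochondrial tRNA and similar classes, a run of at least 13 bases was shared by 61 candidates (14.4%) and by 165 other sequences (14.4%), so at that length candidates did not stand out. Nuclear tRNAs were not among these classes, so the numbers cover only matches to the classes searched and can miss other structural RNAs. Runs of at least 16 bases were shared by 15 candidates (3.53%) and 84 others (7.33%). Of the 15, 5 had a run that began at the first base of the annotated RNA and 7 a run that ended at its last base. Of the 84 others these numbers were 6 and 10. The labels' protocol states that reads of such RNA families had been filtered out before miRNAs were called.

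The most abundant candidate was among them. Bases 1 to 17 of PC-3p-844_11652 are the last 17 bases of snoRNA genes Gm24460, Gm24616, Gm25582 and Gm25588, and only its 18th base lies outside. The 15 candidates held 26.2% of all candidate value, and 2.17% without it. PC-3p-23022_141 matched the last 17 bases of Rnu12, the U12 snRNA of the minor spliceosome. It stood at 25.5, 34.3 and 141 normalized counts in control, 26.6, 42.8 and 35.6 at 1 µM, and 18.1, 28.7 and 127 at 10 µM, high in library 3 of control and of 10 µM.

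PC-5p-19094_181 ended with cca after the last 16 bases of mt-Ta, the mitochondrial alanine tRNA gene. Mature tRNAs carry CCA at the 3 prime end, which in animals is added after transcription. It was in all 9 libraries, at 17.4 to 52.3 normalized counts. PC-5p-12415_322 matched the first 16 bases of the scaRNA gene Gm24289 after 2 other bases, and PC-5p-30325_94 the first 20 bases of the snoRNA gene Gm25776.

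PC-5p-113182_5 matched the first 21 bases of Snora31, a snoRNA of the pseudouridylation guide class. It was found in control library 2 only, at 3.43 normalized counts. Candidates PC-3p-133864_5, PC-5p-121143_5 and PC-3p-24084_132 matched the last 15 or 16 bases of annotated 5S rRNA genes or copies of them. The first of these shared its run with Rn5s itself.

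Seeds were mostly not those of known miRNAs. The 425 candidates had 415 different seeds, and 93 candidates (21.9%) shared a seed with a mouse mature miRNA of RefSeq, against 63.8% of the other sequences of the table. The other sequences include the known miRNAs of the table, so their higher share was set by how the sequences were named. The RefSeq mature miRNAs hold 1398 different seeds. Within the candidates, 10 seeds were each shared by 2 of them. One such pair has the seed of miR-1950, and its second member is the Snora31 match. Capitals mark the seed.
PC-3p-53596_33: tCTGCATCtctggctgggctt
PC-5p-113182_5: tCTGCATCcactgatagacctc

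Runs of at least 16 bases were shared with a named sequence of the table by 18 candidates and with another candidate by 12.

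A miRNA hairpin leaves a pair of strands that anneal. The table lists 95 pairs in which a 5p candidate is followed by a 3p candidate on the next line, and the duplex energies computed for them had a median of -10.3 kcal/mol, against -9.7 for the 39949 other combinations of a 5p and a 3p candidate. The 2 medians were close. For 4 neighbours the partner was the best of all 284 3p candidates, and capitals mark the paired bases of 3 of these pairs.
PC-5p-52361_35: TCGGGGCTGGAGGGaTGgGCTt
PC-3p-22592_145: AGCgCACCCTTCAaGTCCTGGa
PC-5p-111421_5: cCCGACCCCGCcGcCCGCgGCT
PC-3p-53885_33: AGCgGCGGCtGCGGGGTCGGa
PC-5p-59298_26: TgCACCCGcGCAcCGTCCGCGCG
PC-3p-125505_5: CGTGCGGATGTGCCGGGTGgGa

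The energies were -28.2, -38 and -34.9 kcal/mol, with 19, 18 and 20 base pairs. In the pair of PC-5p-52361_35 and PC-3p-22592_145 the 3p strand was the more abundant, at a mean of 19.3 against 4.10 normalized counts, and it was found in 9 libraries against 5. PC-3p-53885_33 was in 9 libraries at 4.93 to 13.05 normalized counts, and its partner PC-5p-111421_5 in 1 library.

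Change with dose was tested with limma on log2(value + 1) over the 1561 sequences whose mean reached 1 in some group, and all 425 candidates passed that filter. With Benjamini-Hochberg adjustment, no candidate passed 0.05 in any of the 3 comparisons, and neither did any other sequence, so the share called was 0% of those tested each time. The smallest adjusted p from limma among candidates was 0.538 for 10 µM against control, 1 for 1 µM against control and 0.683 for 10 against 1 µM.

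At an unadjusted p below 0.05 there were 14 candidates (3.29%) for 10 µM against control, 7 higher and 7 lower, beside 5.51% of all sequences. For 1 µM against control there were 6 (1.41%), 2 higher and 4 lower, beside 1.79%. For 10 against 1 µM there were 11 (2.59%), 6 higher and 5 lower, beside 4.80%. The candidates were thus at or under the share of the whole table in all 3 comparisons. However, 0 of the 222 candidates found in 1 library reached that level in any comparison. Such sequences made up 52.2% of candidates and 18.2% of the others. The shares therefore do not compare sequences alike in detection, and no lower rate of change among candidates can be read from them.

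The median log2 difference of the candidates was 0.19 for 10 µM against control, 0 for 1 µM against control and 0.50 for 10 against 1 µM, and that of all sequences tested was 0.14, 0 and 0.15. Candidates found in a single library had medians of 0.72, 0 and 0.72, in the same order, and those in all 9 libraries had medians of -0.06, -0.13 and 0.13. Candidates ending in AGT had medians of 0.62, 0 and 0.18, and those ending in TTT of -0.06, -0.09 and -0.08. A candidate in 1 library cannot give more than a value against zeros on this scale, and its difference depends on the added 1. The sign of that difference is set by the group its library belongs to. Of the 222 such candidates, 131 were in a 10 µM library (66 in library 3), 58 in control and 33 at 1 µM. Their medians restate this split and show no change with dose. They also enter the medians of all candidates, of those ending in AGT (19 of 44) and of those ending in TTT (12 of 32).

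**Figure D5:**
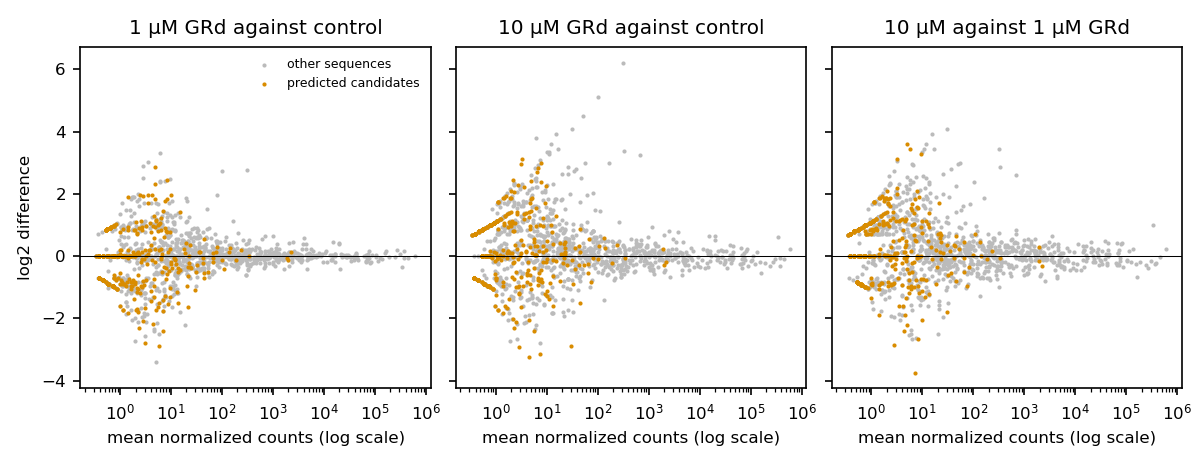
Log2 difference on the log2(value + 1) scale against the mean level (log axis) for the candidates (orange) and other sequences (grey) in the 3 comparisons. The straight orange lines at the left are candidates found in 1 library, and candidates with higher means lie nearer 0.

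The candidates with the smallest p-values were low and are given as not passing. Fitted differences against groups at 0 depend on the added 1 and are no measure of fold. PC-3p-89886_8, at 0 in all control libraries, had a log2 difference of 3.11 ± 0.95 (SE) for 10 µM against control, with an adjusted p from limma of 0.538. PC-5p-47035_44 stood at 5.31, 13.05 and 6.63 normalized counts in control, 6.91, 19.01 and 14.5 at 1 µM, and 0 in all 3 libraries at 10 µM, so that the 10 µM group lay below both others. Its log2 difference was -3.13 ± 0.99 (SE) against control and -3.75 ± 0.99 against 1 µM, with adjusted p from limma of 0.538 and 0.683.

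PC-3p-22007_150, which shares the end gtgctgtaggcttt with PC-3p-24084_132, stood at 41.4, 28.8 and 90.2 normalized counts in control, 17.8, 45.6 and 12.2 at 1 µM, and 12.5, 19.5 and 0 at 10 µM. The 10 µM group lay below control without overlap, and the 1 µM group overlapped both. The log2 difference of 10 µM from control was -2.90 ± 0.91 (SE, adjusted p from limma 0.538). PC-3p-24084_132 stood at 60.5, 23.3 and 137 in control, 36.5, 60.8 and 18.9 at 1 µM, and 12.5, 36.9 and 16.5 at 10 µM, with overlapping groups.

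PC-3p-43748_50 had the opposite order of doses. It stood at 8.49, 4.81 and 6.63 normalized counts in control, 0 in all 3 libraries at 1 µM, and 6.27, 11.3 and 13.8 at 10 µM. The 1 µM group lay below both others, with log2 differences of -2.91 ± 1.00 (SE) against control and 3.45 ± 1.00 for 10 against 1 µM, and adjusted p from limma of 1 and 0.683. PC-3p-49666_39, the Mir7063 match with an added T, was at 0 in control, at 8.88, 4.75 and 5.57 at 1 µM, and at 0, 7.17 and 17.9 at 10 µM. Its log2 difference of 1 µM from control was 2.85 ± 1.17 (SE, adjusted p from limma 1).

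The rest of the 5 smallest p-values in each comparison came from candidates with means of 2.30 to 7.01 normalized counts. PC-3p-68380_18 and PC-5p-67447_19 were at 0 at 10 µM and at 4.81 to 15.9 in control. At 1 µM, PC-3p-60195_25 was at 0 against 4.12 to 7.43 in control, PC-3p-69614_17 at 0 against 0 to 13.3, and PC-3p-41691_55 at 0 to 7.90 against 5.31 to 17.2. For 10 against 1 µM, PC-5p-64858_21 was at 9.06 to 16.5 against 0, and PC-3p-69924_17 at 0 against 5.57 to 7.90. None passed the adjusted test.

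Among candidates with a mean of at least 50 in a group, groups did not overlap for 3 of 20 at 10 µM against control, 1 of 18 at 1 µM against control and 3 of 18 at 10 against 1 µM. Over all sequences at that level the shares were 11.3%, 14.2% and 11.8%. PC-3p-7788_582 stood at 108, 110 and 110 normalized counts in control, 131, 132 and 102 at 1 µM, and 133, 136 and 244 at 10 µM. The 10 µM libraries were above all others, and the 1 µM group overlapped control. The log2 difference of 10 µM was 0.58 ± 0.29 (SE) from control and 0.44 ± 0.29 from 1 µM, with adjusted p from limma of 0.665 and 0.683.

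PC-3p-12296_327 stood at 71.1, 77.6 and 72.9 in control, 65.1, 79.8 and 69.0 at 1 µM, and 62.0, 44.1 and 45.5 at 10 µM. The 10 µM libraries were below all others, by a log2 difference of 0.56 below control (-0.56 ± 0.32, SE, adjusted p from limma 0.665). PC-3p-10454_403 was at 68.0 to 110 in control, 83.6 to 104 at 1 µM and 28.9 to 71.7 at 10 µM, so that the 10 µM group overlapped control and lay below 1 µM (log2 difference -0.97 ± 0.36, SE, adjusted p from limma 0.683). PC-5p-3713_1568 was the only one that did not overlap between control and 1 µM, with a log2 difference of -0.14 ± 0.26 (SE, adjusted p from limma 1).

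For PC-5p-3713_1568 the 10 µM result turned on library 3. With it the log2 difference from control was -0.30 ± 0.26 (SE, adjusted p from limma 0.665), and without it -0.74, with an adjusted p from limma of 0.0197. This was the only candidate to pass when any single library was left out, and it rests on 2 libraries at 10 µM.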

How the data were processed

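Total RNA of about 5 µg per sample went into small RNA libraries (TruSeq) that were sequenced on a HiSeq instrument, and reads were filtered with ACGT101-miR against other RNA families and repeats, per the labels' protocols. The deposited signal values are counts per miRNA sequence scaled by the authors and headed as normalized counts. Not given in the sources used here are the scaling formula, the genome build, the miRBase release and the prediction rule. The filter against other RNA families bears on which candidates could be called.

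Of 1608 lines, 37 repeated a sequence and were dropped. Members were taken by name prefix. They, the marker lists and the candidates named (the 15 highest means, the 5 smallest p-values per comparison, non-overlapping groups at a mean of at least 50, and examples of sequence classes) were chosen with earlier results of these data known. Others with a structural RNA match, a 3 prime T run or a level apart in 1 library were chosen after their values were seen.

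Values were tested with limma 3.58.1 (R 4.3.3) on log2(value + 1) with a mean-variance trend over all 9 libraries, 1 mean per group and Benjamini-Hochberg adjustment at 0.05. This scale understates changes of low sequences. The fit was checked on simulated data in which only sequences with a mean of at least 50 were changed. Only 16 candidates reach that level, so the check does not cover the rare candidates. Shares and numbers detected were compared with exact permutation tests. Candidate values were nearly all whole multiples of 1 read, but 82.5 to 87.8% of the other low values per library were, so read numbers and the 4933690 to 9214210 reads per library are estimates and no count model was run. Duplex energies came from RNAduplex 2.7.2. Transcripts are GENCODE vM21 and miRNA sequences RefSeq. Files were read with Python 3.11.15 and pandas 2.3.3, and figures drawn with matplotlib 3.10.9. Alternatives were other pseudocounts, filters, scalings and weights, a block for replicate number, and each library left out in turn.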

Additional observations from a re-analysis of the deposited data

How the results depend on the processing

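No candidate passed adjustment under any alternative that kept all 9 libraries, with other pseudocounts, filters and scalings included. With single libraries left out, 0 to 1 candidates passed for 10 µM against control and 0 to 0 in the other comparisons. The exception was PC-5p-3713_1568 without 10 µM library 3 (-0.74, adjusted p from limma 0.0197), whose difference of 10 from 1 µM ran from -0.59 to 0.0740 with single libraries left out, and was above 0 without 10 µM library 1 or 2 (0.0740 and 0.0540). With array weights, 27 candidates had an unadjusted p below 0.05 for 1 µM against control in place of 6, and the cause was not tested.

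Correlations of same-numbered libraries' deviations from their group means ran from -0.32 to 0.16. Those of differently numbered libraries ran from -0.26 to 0.34. The check used 414 sequences with a mean of at least 50, few of them candidates. Whether replicate numbers pair the libraries cannot be told from these values. With a replicate block, 0 candidates passed in each comparison, and 13, 4 and 10 had an unadjusted p below 0.05.

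The difference in summed share was small and changed sign with the libraries used. Leaving out libraries gave -0.0197 to 0.0110 percentage points for 10 µM against control, -0.0103 to 0.00720 for 1 µM against control and -0.0157 to 0.0150 for 10 against 1 µM. Without the most abundant candidate the first was 0.00401. Numbers detected differed by 13.3 to 52.8, -31.3 to 8.17 and 33.8 to 62.3, so 10 µM stayed above 1 µM in each. Matching bases 1 to 18 in place of whole sequences moved the classes to 19 in hairpins, 4 in structural RNAs and 26 in other transcripts, since fewer bases had to match. Without 10 µM library 3, an alternative chosen after seeing the data, 359 candidates were found at all, 164 in a single library, 49 in all 8 and 73 at 10 µM only, and 38 ended in AGT and 27 in TTT.

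Most candidates found in a single library rest on 5 or 6 reads. Candidate values under 5 reads are nearly missing from the table, so a value of 0 elsewhere can stand for up to 4 reads. The part of depth in detection was not tested.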
